A study of Mus musculus with 4 samples.

Results

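In satellite cells treated with a morpholino against Numb exon 6, 29 genes had a mean transcript length that differed from that of the control morpholino in the same direction in both mice. They were chosen among 13063 genes with at least 200 estimated counts and a TPM of at least 1 in all 4 libraries, out of 55487 gene identifiers in the deposited tables. The difference had to be at least 0.4 in size on the log2 scale, which is 1.32-fold, in each mouse. Transcripts of 18 genes were longer and those of 11 were shorter with the Numb exon 6 morpholino. These are 0.138% and 0.0842% of the genes that passed the level limits, and 0.222% together. The genes were picked by these very values, so the differences between the morpholinos are given as a description, with no test.

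The 2 groups held 2 libraries each, and every mouse contributed 1 library to either group. Both mice carried Tg:Pax7-nGFP, a transgene in which regulatory sequence of Pax7 drives a green fluorescent protein into the nuclei of satellite cells, the stem cells of skeletal muscle. The muscle of each mouse was minced and exposed to a vivo-morpholino, an antisense oligomer that enters cells unaided, while it was first being digested, and satellite cells were isolated afterwards. One group received a control morpholino, and the other received a morpholino that blocks inclusion of exon 6 of Numb. The labels give no age or strain. Libraries were made from 5 ng of RNA by SMART-Seq2, a method that amplifies full-length cDNA without marking the strand.

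Most mouse genes produce several transcripts, through alternative promoters, alternative splicing and alternative cleavage and polyadenylation. Dividing cells are known to favour shorter 3′ untranslated regions, and Rbfox2, on which the title of the study centres, is a splicing factor that acts on short alternative exons in muscle. A change in the mix of transcripts alters the mean length of a gene's RNA even where the number of molecules stays the same. The ratio of a gene's count to its TPM is proportional to that mean length. Among 2644 genes with 1 annotated transcript the ratio times 1 constant per library returned the annotated length within 1% for 100% of genes in every library, and the constants were used to express the ratio in bases. The selection itself divided the ratio by its library median, so a log2 difference in bases can depart from the printed shift in the second decimal. Counts and TPM are estimates that share reads out among annotated transcripts, so the shares of molecules given below are estimates too. No splice junction or transcript end was measured.

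Estimated counts summed to between 230431665 and 355411827 per library. Of counts from 1 to 12, 27.9% to 29.8% were 4, 8 or 12, somewhat above an even spread over these values. Whether a fragment added about 4 counts was not settled, so the number of fragments behind a value is unknown. All 6 satellite cell markers were present, with a summed TPM of 2749 and 3011 in the controls and of 3564 and 3316 with the Numb exon 6 morpholino. Markers of other cells were present too. The 8 fibro-adipogenic markers summed to between 1570 and 1775 TPM, the 9 markers of mature fibres to between 154 and 180, and the 8 endothelial markers to between 111 and 169. Glial markers (6 genes) summed to 63.8 and 79.0 in the controls and to 111 and 141 with the Numb exon 6 morpholino. The 13 leukocyte markers summed to 33.2 and 38.0 TPM with the control and to 43.8 and 134 TPM with the Numb exon 6 morpholino. No marker was at 0 in all libraries. In bulk RNA fewer cells of a type and less RNA per cell cannot be told apart.

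The length of most genes barely differed between the morpholinos. The median size of the log2 shift was 0.020 in mouse 1 and 0.021 in mouse 2, and 82.3% and 81.8% of the 13063 genes lay within 0.1. These genes include 2644 with 1 annotated transcript, whose length could not differ. Only 9819 have annotated lengths that allow a shift of 0.4. A shift of 0.4 or more was present in 236 genes in mouse 1 and in 229 genes in mouse 2, and 23 genes passed in both mice with opposite signs. Across genes, which are not independent replicates, the Pearson correlation between the shifts of mouse 1 and mouse 2 was 0.05. The groups did not overlap in 28 of the 29 chosen genes, against 53.1% of all genes that passed the level limits, and Cdk20 was the one whose groups overlapped. The 28 largely follow from the choice, which used these same values. Non-overlap had no minimum size, so the share over all genes includes very small differences. It is also taken over genes with 1 annotated transcript, whose order between libraries comes largely from the scaling to the library median.

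**Figure D1:**
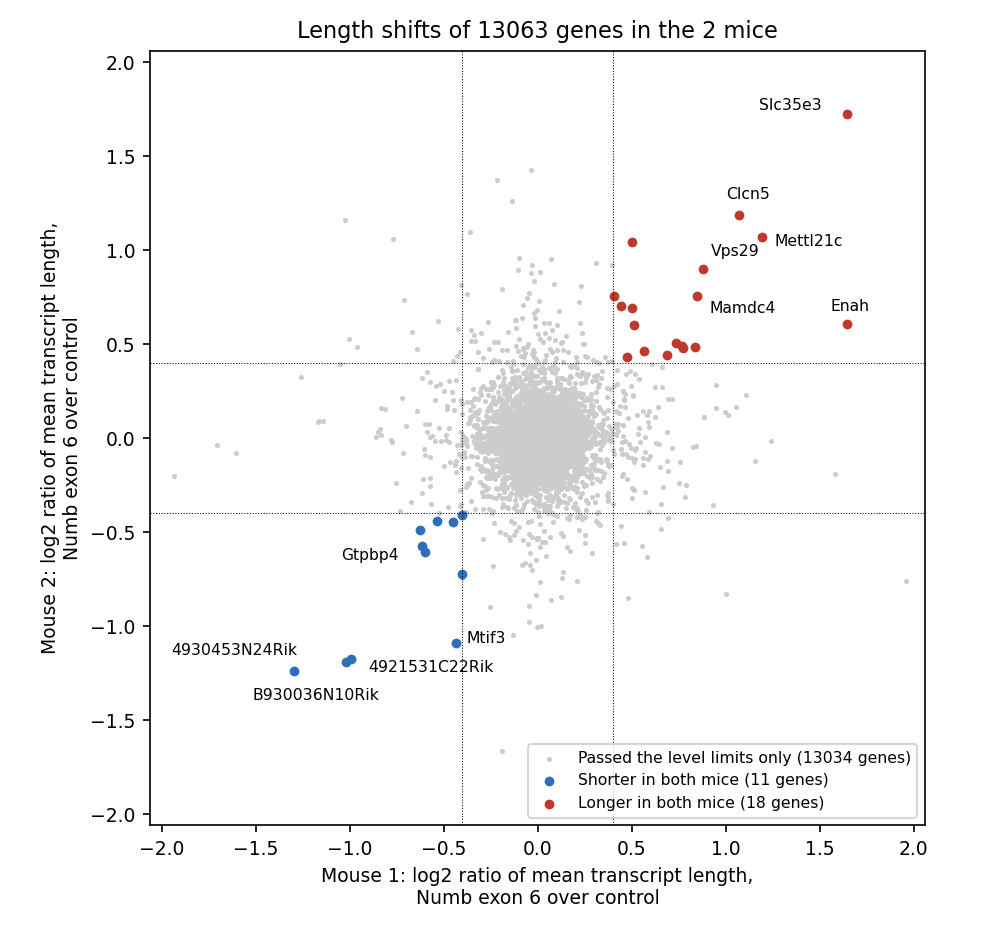
Log2 ratio of mean transcript length, Numb exon 6 over control morpholino, in mouse 1 (horizontal axis) and mouse 2 (vertical axis), with 1 point per gene and dotted lines at a size of 0.4. The 18 longer genes (red) lie at the upper right, up to Slc35e3 at 1.64 and 1.72, the 11 shorter genes (blue) lie at the lower left, and most of the other genes (grey) lie near 0.

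Slc35e3, a member of the solute carrier family that holds the nucleotide-sugar transporters, had the largest shift. Its mean transcript length was 1105 and 1049 bases in the control libraries of mouse 1 and mouse 2, and 3472 and 3489 bases in the Numb exon 6 libraries. The control libraries lay close together, at 1077 ± 39.1 bases (SD, n = 2), and so did the Numb exon 6 libraries. The gene lies on GRCm38 chromosome 10 from 117733679 to 117746365 on the minus strand, and GENCODE vM21 lists 2 transcripts for it: a coding transcript of 3489 bases and a processed transcript of 666 bases with no coding sequence. With only these lengths, the mean fixes the mix. The coding transcript made up 15.5% and 13.6% of the molecules with the control morpholino and 99.4% and 100% with the Numb exon 6 morpholino. The gene's TPM, which is scaled to length, was 5.03 and 3.90 with the control and 5.24 and 4.97 with the Numb exon 6 morpholino, while its counts were 1044 and 651 against 2976 and 2063. The groups were well apart in counts and close in TPM.

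Among the longer genes, Clcn5, Vps29, Agfg1 and Mamdc4 act in the endosomal system. Clcn5, a chloride-proton exchanger of endosomes, had a mean length of 3161 and 2957 bases in the controls and of 6677 and 6772 bases with the Numb exon 6 morpholino. Both its counts and its TPM were higher in each mouse: counts were 4592 and 4112 in the controls against 14525 and 13076, and TPM was 7.73 and 8.74 against 13.3 and 16.2. The log2 ratio of TPM was 0.78 in mouse 1 and 0.89 in mouse 2, and that of CPM (counts scaled to the library total) was 1.82 and 2.08. Counts, TPM and length were each apart between the groups, with no overlap, which for length largely follows from the choice of genes. Its 5 annotated transcripts start in separate parts of the locus (chromosome X, 7153810 to 7319358, minus strand). The longest, Clcn5-201 (8390 bases), and a retained-intron transcript of 4731 bases start at an inner position, while transcripts of 3052, 1073 and 355 bases start far upstream and are annotated with an incomplete 3′ end.

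The mean length bounds the shares of these transcripts. Clcn5-201 could make up at most 34.9% and 32.4% of the molecules in the controls, and had to make up at least 53.2% and 55.8% with the Numb exon 6 morpholino. Transcripts from the inner start took between 2.04% and 64.1% and between 0% and 59.5% in the controls, and at least 67.9% and 69.7% with the Numb exon 6 morpholino. Neither pair of ranges overlapped between the groups. These limits take the annotated lengths of the incomplete transcripts as true. A change of start and a change at the 3′ end cannot be told apart by the mean length. The promoter windows of the outer and the inner start are shown because limits were solved for transcripts of these starts. They are taken from RefSeq (GRCm38.p6, both on the minus strand), and capitals mark matches to TATAAA (the TATA box), GGGCGG (the GC box) and CAGCTG (an E-box) on either strand.
Clcn5 outer start, chrX:7319309-7319608: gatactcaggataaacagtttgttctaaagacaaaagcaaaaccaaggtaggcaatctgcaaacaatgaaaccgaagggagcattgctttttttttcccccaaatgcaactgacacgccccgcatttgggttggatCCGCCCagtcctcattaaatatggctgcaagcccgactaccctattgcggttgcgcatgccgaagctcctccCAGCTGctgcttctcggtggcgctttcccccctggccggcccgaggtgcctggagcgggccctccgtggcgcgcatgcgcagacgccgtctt
Clcn5 inner start, chrX:7188665-7188964: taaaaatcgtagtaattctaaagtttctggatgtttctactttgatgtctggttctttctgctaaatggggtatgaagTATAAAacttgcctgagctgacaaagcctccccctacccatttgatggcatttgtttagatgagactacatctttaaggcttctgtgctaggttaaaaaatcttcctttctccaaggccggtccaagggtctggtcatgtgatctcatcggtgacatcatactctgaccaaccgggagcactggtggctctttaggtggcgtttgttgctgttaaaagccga
The outer window held 19 CG pairs, 1 GC box and 1 E-box, and the inner window held 6 CG pairs and 1 TATA box. Over all 32851 windows of this length, 13.6% held TATAAA, 35.7% held GGGCGG and 16.3% held CAGCTG, with a median of 7 CG pairs. A match is a description of the letters, not a site. Of the 5 annotated transcripts, 2 carry a coding exon that Clcn5-201 lacks, exon 4 of the transcript of 3052 bases. It is printed in capitals with 15 flanking coding bases (chrX:7212864-7213010, minus strand, GRCm38). Only with the annotated lengths taken as true did most Clcn5 molecules of the Numb exon 6 libraries lack it. Use of the exon itself was not measured.
Clcn5 exon 4: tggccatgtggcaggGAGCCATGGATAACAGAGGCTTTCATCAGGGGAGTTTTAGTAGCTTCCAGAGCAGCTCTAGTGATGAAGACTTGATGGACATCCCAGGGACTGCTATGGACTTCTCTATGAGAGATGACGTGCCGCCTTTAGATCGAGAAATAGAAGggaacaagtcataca
The exon is 147 bases long and lies wholly in coding sequence.

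Vps29, a subunit of retromer, the coat that returns cargo from endosomes, had a mean length of 1330 and 1285 bases in the controls and of 2458 and 2418 bases with the Numb exon 6 morpholino. Its libraries agreed closely within each group, at 1307 ± 31.4 and 2438 ± 28.4 bases (SD, n = 2 each). TPM was lower with the Numb exon 6 morpholino, at 42.9 and 42.1 against 72.4 and 78.4, while the log2 ratio of CPM was 0.09 and 0.00. Of its 9 annotated transcripts (chromosome 5, 122354369 to 122364984, plus strand), 2 are longer than 1014 bases: the coding transcript Vps29-208 of 2716 bases and a single-exon retained-intron transcript of 3364 bases. Together these accounted for at most 40.0% and 38.0% of molecules in the controls and for at least 61.5% and 59.8% with the Numb exon 6 morpholino. The last exon of Vps29-208 starts at the same base as that of Vps29-204 (1014 bases) and runs on to a later end. The last 30 bases of both transcripts are shown, with the polyadenylation hexamers AATAAA and ATTAAA in capitals.
Vps29-208, chr5:122364955-122364984: aAATAAAattctttaattttattactatta
Vps29-204, chr5:122363257-122363286: tctctggtAATAAAtgtgtaccttccattt
Each end carries an AATAAA. Fam216a overlaps Vps29 on the opposite strand, and in these unstranded libraries their reads cannot be told apart.

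Agfg1, an adaptor with an Arf-GAP domain that takes part in clathrin-mediated sorting, had a mean length of 4672 and 4798 bases in the controls and of 6951 and 6662 bases with the Numb exon 6 morpholino. Its TPM was lower in both mice, at 8.02 and 7.75 against 14.1 and 11.9. All 8 annotated transcripts are coding (chromosome 1, 82839483 to 82901182, plus strand). The longest, Agfg1-206 with 8044 bases, made up between 31.2% and 54.8% of molecules over the controls and between 71.8% and 84.8% over the Numb exon 6 libraries. It shares the start of its last exon with a transcript of 3142 bases and extends further, and their last 30 bases are printed in the same way.
Agfg1 of 8044 bases, chr1:82901153-82901182: tggtatctttattgagtatgtatttcgttg
Agfg1 of 3142 bases, chr1:82896352-82896381: aaatgATTAAAaagaaatctttgaacaata
The nearer end holds an ATTAAA and the farther end holds neither hexamer in these 30 bases. Mamdc4 encodes endotubin, a membrane protein of apical endosomes. Its mean length was 2203 and 2348 bases in the controls and 3989 and 3992 bases with the Numb exon 6 morpholino, close to its full-length coding transcripts of 3998 and 3990 bases. Coding transcripts made up between 44.8% and 65.5% of Mamdc4 molecules in the controls and at least 99.7% with the Numb exon 6 morpholino. Phpt1 overlaps Mamdc4 on the same strand.

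**Figure D2:**
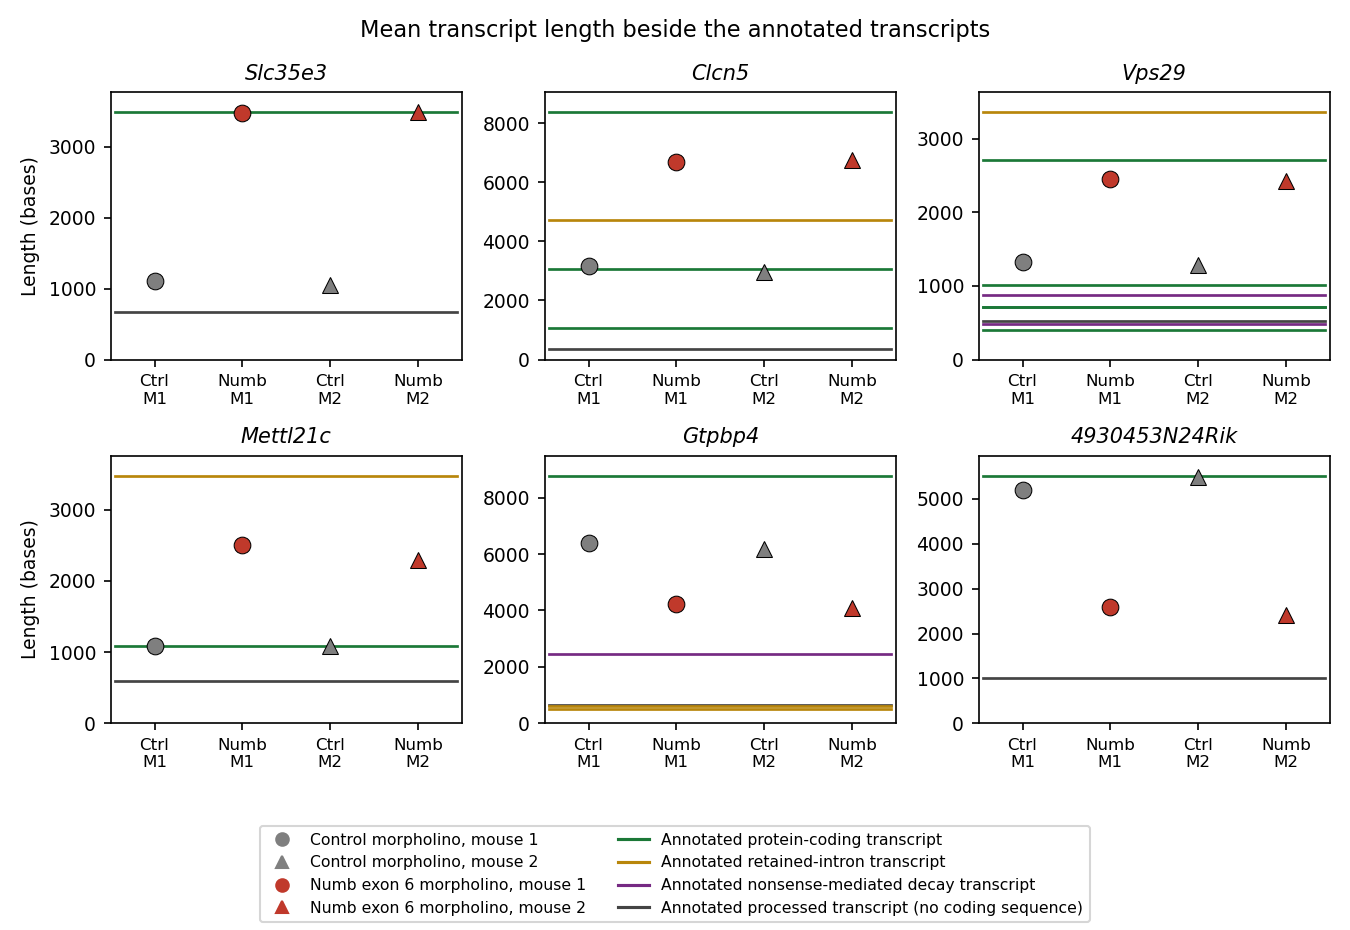
Mean transcript length in bases of 6 genes in each library (points), with 1 horizontal line per annotated transcript coloured by its class. In each of the 6 genes the libraries of the same morpholino lay close together and apart from those of the other morpholino, as in Slc35e3 with 1105 and 1049 against 3472 and 3489 bases.

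Among genes of the cytoskeleton, Enah (Mena), an actin regulator of the Ena/VASP family, had a mean length of 1767 and 1951 bases in the controls and of 5564 and 2997 bases with the Numb exon 6 morpholino. The mice differed in size, with shifts of 1.65 and 0.61. CPM was higher in both mice (log2 ratios of 1.16 and 0.75), while TPM was lower in mouse 1 and higher in mouse 2 (-0.45 and 0.14). Of 16 annotated transcripts (chromosome 1, 181896384 to 182019990, minus strand), only Enah-211 (11229 bases) and the single-exon Enah-213 (5962 bases) exceed 4231 bases, and together they made up at least 19.1% of molecules in the Numb exon 6 library of mouse 1. No lower limit above 0 held in the other libraries. Enah is known for a short coding exon regulated by splicing factors. It is exon 13 of a transcript of 3572 bases, which alone of the 16 carries it, and is shown in capitals with 15 flanking coding bases (chr1:181911597-181911659, minus strand, GRCm38) for its size.
Enah exon 13: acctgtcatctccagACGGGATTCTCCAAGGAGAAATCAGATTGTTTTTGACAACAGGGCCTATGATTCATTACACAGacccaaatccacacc
The exon is 63 bases long. The annotated Enah transcripts also differ outside it, so mean length does not show whether its inclusion differed, and this was not tested.

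The other genes of this kind had a smaller mean shift than Enah, although Cdk20 and Kif15 had a larger one in mouse 2. Cdc42bpg, a kinase that binds the GTPase Cdc42, has 2 annotated transcripts, a coding one of 5995 bases and a retained-intron one of 310 bases. Its coding share was 52.3% and 63.6% in the controls and 88.2% and 89.2% with the Numb exon 6 morpholino, while TPM was 2.11 and 1.53 against 1.03 and 1.14. Kif15, a mitotic kinesin, lay just inside the threshold in mouse 1, with shifts of 0.40 and 0.76. Cfap97, a protein of cilia, had mean lengths of 2453 and 3174 bases in the controls and of 4195 and 4487 bases. Cdk20, a kinase of the cell cycle and cilia, had 2395 and 1056 bases in the controls and 3410 and 2193 bases with the Numb exon 6 morpholino, so that the Numb exon 6 library of mouse 2 lay below the control of mouse 1. Cdk20 also had the lowest count of all 29 genes, 208 in the control of mouse 2.

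Mettl21c, a protein lysine methyltransferase enriched in skeletal muscle, had a mean length of 1088 bases in both controls, within 2 bases of its coding transcript (1086 bases). With the Numb exon 6 morpholino it was 2505 and 2299 bases. The only longer annotated transcript is a retained-intron transcript of 3482 bases (chromosome 1, 44010510 to 44020034, minus strand). It made up at most 17.1% of molecules in either control and between 50.6% and 66.2% over the Numb exon 6 libraries. Counts were 546 and 308 in the controls and 1237 and 914, and TPM was 2.67 and 1.78 against 3.02 and 3.34. The part of the mature-fibre markers given above in this result was not tested.

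Of the longer genes with nuclear products, Cdc5l, a core protein of a spliceosomal complex, had a mean length of 1710 and 1703 bases in the controls and of 2343 and 2793 bases. The share of its single coding transcript (3027 bases) lay between 41.5% and 49.5% in the controls and between 69.8% and 91.0% with the Numb exon 6 morpholino, while TPM was 67.2 and 56.6 against 49.0 and 38.9. Zfp644, a zinc finger protein that binds histone methyltransferases, had 2751 and 2468 bases in the controls and 3945 and 3767 bases with the Numb exon 6 morpholino. Its longest transcript retains an intron, and no class of its 18 transcripts could be bounded apart. Rnf141, a RING finger protein, lay close to the threshold, with shifts of 0.48 and 0.43.

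Afmid and Macrod2 encode metabolic enzymes. Afmid, the arylformamidase of the kynurenine pathway, was 1 of 6 longer genes whose TPM was higher in both mice: it stood at 3.67 and 5.30 TPM with the control and at 7.89 and 11.7 TPM with the Numb exon 6 morpholino, with mean lengths of 1138 and 1160 bases against 1622 and 1891 bases. Tk1 overlaps it on the opposite strand. Macrod2, a hydrolase of mono-ADP-ribose, had 1349 and 1900 bases in the controls and 2263 and 2724 bases with the Numb exon 6 morpholino.

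Itgb7, an integrin chain of leukocytes, had mean lengths of 1475 and 1191 bases in the controls and of 2535 and 1671 bases with the Numb exon 6 morpholino. Its TPM was 1.04 and 1.15 against 1.14 and 1.69, on counts of 289 and 218 against 473 and 335. The full-length coding transcript (2683 bases) made up 45.8% to 48.0% and 33.1% to 35.8% of molecules in the controls and 93.3% to 93.6% and 54.6% to 56.5% with the Numb exon 6 morpholino. Ptprc, the pan-leukocyte marker, had 0.57 and 0.05 TPM with the control and 1.21 and 0.72 TPM with the Numb exon 6 morpholino, so it was higher with the Numb exon 6 morpholino in both mice, as was the summed level of the 13 leukocyte markers. Not every marker did so: in mouse 1 Cd3e, of T cells, had 0.420 TPM with the control and 0.383 TPM with the Numb exon 6 morpholino, and Cd79a, of B cells, 2.63 and 2.28 TPM. Their part in the result was not tested. The remaining longer gene, 1110008P14Rik, codes for an uncharacterised protein and has 2 coding transcripts, the longer of which (2618 bases) took 12.4% and 17.1% in the controls and 50.2% and 38.6% with the Numb exon 6 morpholino.

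**Figure D3:**
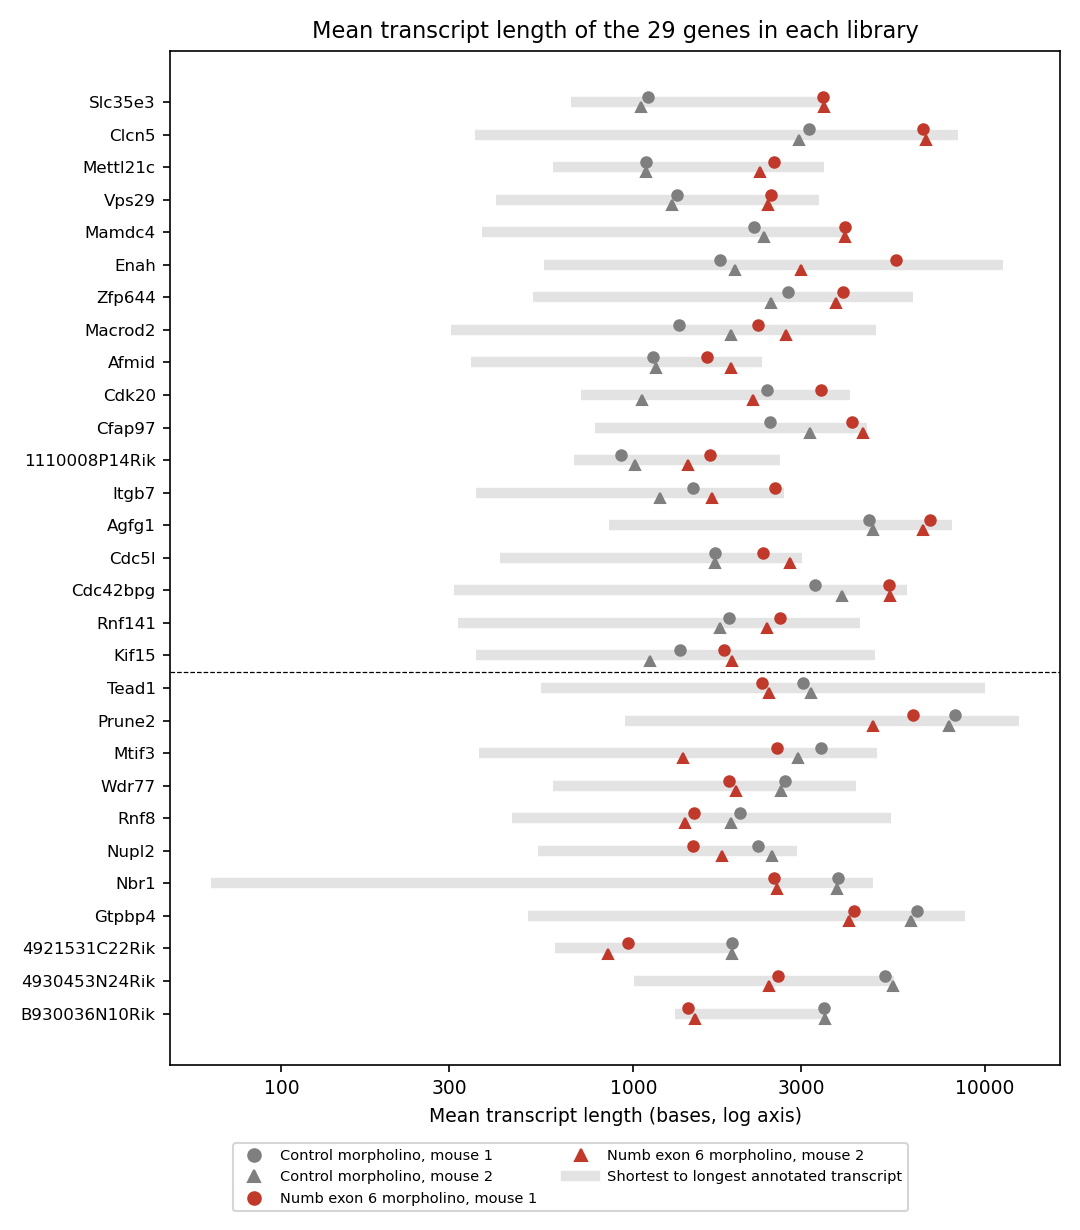
Mean transcript length of the 29 genes in each library (log axis, bases), in order of the smaller shift of the 2 mice, over the range of their annotated transcripts (grey bars). Above the dashed line all Numb exon 6 points (red) lie to the right of the control of the same mouse (grey). Below it they lie to the left, and both follow from the choice. All points lie inside the annotated range, as they did in all 12942 genes with an annotated model that passed the level limits.

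The shorter genes were led by gene models without an established function. 4930453N24Rik, which has 1 coding transcript of 5522 bases and 1 non-coding transcript of 1006 bases (chromosome 16, 64751751 to 64771161, minus strand), had a mean length of 5199 and 5484 bases in the controls and of 2585 and 2423 bases with the Numb exon 6 morpholino. Its coding share was 92.9% and 99.2% against 35.0% and 31.4%. TPM was lower too, at 11.3 and 9.74 against 14.8 and 13.7, the only shorter gene with lower TPM in both mice.

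B930036N10Rik and 4921531C22Rik are non-coding genes that overlap Alyref2 and Taf4 on the opposite strand. In B930036N10Rik the longer of 2 transcripts (3544 bases) took 97.5% and 98.4% of molecules in the controls and 5.16% and 8.25% with the Numb exon 6 morpholino. In 4921531C22Rik the longer (1905 bases) took 100% in both controls and 27.8% and 19.0% with the Numb exon 6 morpholino. By these estimates the long transcript prevailed in the controls and the short one with the Numb exon 6 morpholino, in both genes and both mice. TPM ran from 1.01 to 1.80 in B930036N10Rik and from 7.29 to 10.2 in 4921531C22Rik over the libraries. In these unstranded libraries reads shared with the overlapping genes cannot be told apart.

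Gtpbp4, a nucleolar GTPase needed to build the large ribosomal subunit, was the most abundant of the 29 genes in TPM. Its mean length was 6395 and 6174 bases in the controls and 4241 and 4093 bases with the Numb exon 6 morpholino, the same 0.663-fold in both mice. TPM was 97.4 and 93.2 in the controls and 133 and 135 with the Numb exon 6 morpholino, while CPM differed little (log2 ratios of -0.19 and -0.07). The coding transcript Gtpbp4-204 (8783 bases, on chromosome 13 from 8966331 to 8996083, minus strand) made up between 58.9% and 71.2% of molecules over the controls and between 26.0% and 45.1% over the Numb exon 6 libraries. The next longest transcript, Gtpbp4-201 (2442 bases), is annotated as a target of nonsense-mediated decay. It lacks exon 2 of Gtpbp4-204, a coding exon of 171 bases shown in capitals with 15 flanking coding bases (chr13:8992645-8992815, minus strand, GRCm38), and it ends earlier in the last exon, so the last 30 bases of both transcripts are shown as well.
Gtpbp4-204 exon 2: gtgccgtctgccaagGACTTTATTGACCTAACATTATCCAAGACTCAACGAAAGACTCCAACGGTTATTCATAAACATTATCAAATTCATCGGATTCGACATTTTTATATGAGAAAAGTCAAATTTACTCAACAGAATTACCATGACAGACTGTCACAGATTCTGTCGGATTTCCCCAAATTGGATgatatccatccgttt
Gtpbp4-204 end, chr13:8966331-8966360: ttgtagaaaaATTAAAaatattttgtatgg
Gtpbp4-201 end, chr13:8972480-8972509: agtaagtgcctggggtataggctcaaaacc
The farther end carries an ATTAAA, and the nearer one holds neither hexamer in these 30 bases. The mean length does not say which of the 4 shorter transcripts took up the difference.

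Among the other shorter genes with nuclear products, Wdr77, the partner of an arginine methyltransferase, had 2694 and 2636 bases in the controls and 1868 and 1957 bases with the Numb exon 6 morpholino. Its TPM was 77.8 and 59.0 with the Numb exon 6 morpholino against 46.4 and 33.7 in the controls. Nupl2, a nucleoporin, had 2269 and 2486 bases against 1479 and 1783 bases, and Rnf8, a ubiquitin ligase of the DNA damage response, 2013 and 1899 against 1484 and 1402 bases. Tead1, a DNA-binding partner of the coactivator YAP, lay close to the threshold, with shifts of -0.40 and -0.41 and mean lengths of 3043 and 3204 bases against 2318 and 2431 bases.

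Nbr1, a receptor of selective autophagy, had 3820 and 3790 bases in the controls and 2508 and 2566 bases with the Numb exon 6 morpholino. The groups stood at 3805 ± 21.1 and 2537 ± 40.9 bases (SD, n = 2 each), a gap that largely follows from the choice of genes. TPM was 44.1 and 42.9 against 93.0 and 68.4. Mtif3, an initiation factor of mitochondrial translation, had 3425 and 2931 bases in the controls and 2554 and 1389 bases with the Numb exon 6 morpholino, on 331 counts in the last library. Its longest transcript, which ends farther downstream than the other coding ones, could make up at most 22.5% of molecules in that library and at least 28.6% in the control of the same mouse. In mouse 1 the ranges overlapped. Prune2, a large protein with a BCH domain, had 8196 and 7889 bases in the controls and 6229 and 4809 bases with the Numb exon 6 morpholino.

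**Figure D4:**
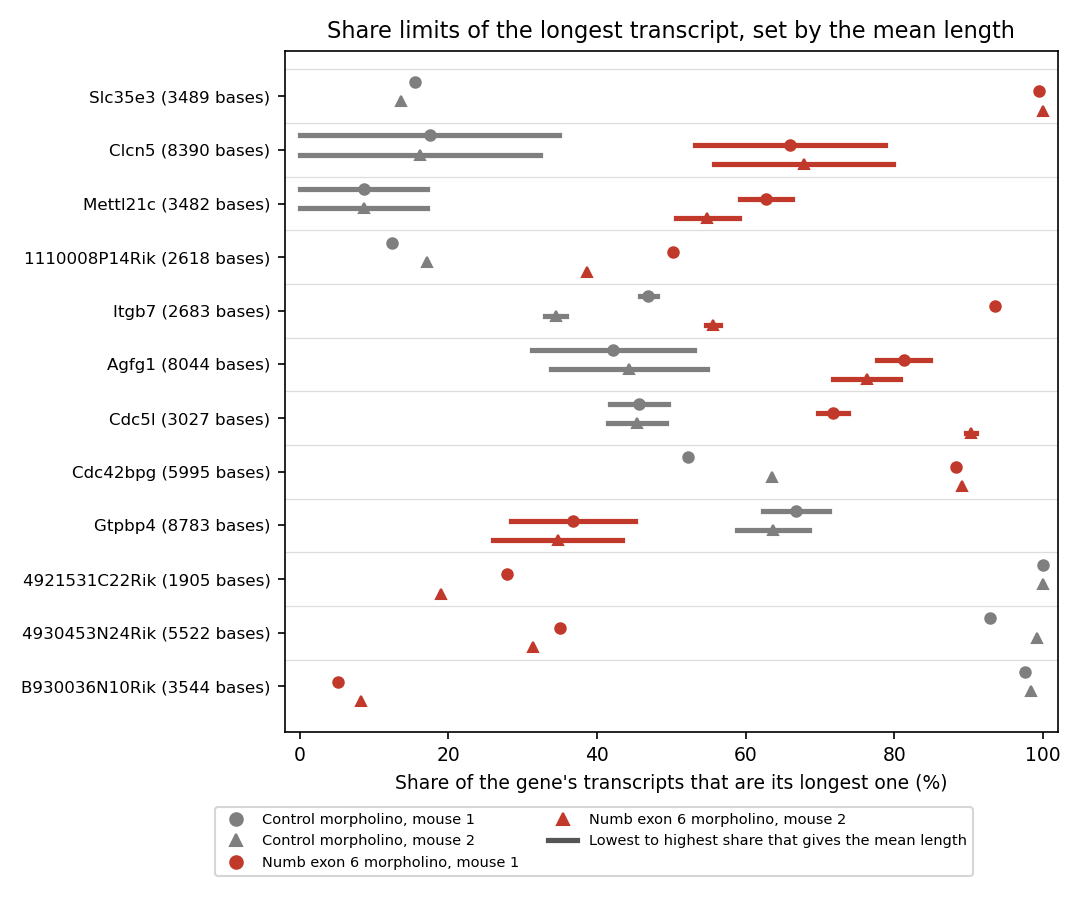
Share of the longest annotated transcript in the 12 of the 29 genes where its limits did not overlap between the morpholinos (percent of the gene's molecules). Bars run from the lowest to the highest share that gives the estimated mean length, points mark their middle, and genes with 2 annotated transcripts have a single value.

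Limits on the share of the longest transcript kept the groups apart in 8 of the 18 longer genes, always higher with the Numb exon 6 morpholino, and in 4 of the 11 shorter genes, always lower. The direction follows from how the genes were chosen. The limits were not solved over all genes, so none of these counts has a background share. Of the named genes outside the chosen set, Dnhd1, just outside the threshold, was also kept apart, with a lower share. In the other such genes that were solved the limits overlapped. For coding transcripts as a class, the limits kept the groups apart in 4 longer genes (Cdc42bpg, Cdc5l, Mamdc4 and Slc35e3), where the coding share was higher, and in 2 shorter genes (4930453N24Rik and Gtpbp4), where it was lower. In the remaining genes with coding transcripts the limits overlapped.

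Counts and TPM of the genes are given side by side. Of the 18 longer genes, TPM was lower in both mice in 8 and higher in both in 6, while CPM was lower in both in 1 (Agfg1) and higher in both in 12. Of the 11 shorter genes, TPM was higher in both mice in 5 and lower in both in 1, while CPM was lower in both in 8 and higher in both in 2 (Nbr1 and Wdr77). Over all 13063 genes, TPM was lower in both mice in 22.3% and higher in 37.3%, and CPM in 25.0% and 35.1%. The median log2 ratio of CPM was 0.23 in the longer and -0.29 in the shorter genes, and that of TPM was -0.30 and 0.18. The difference between the scales is the length shift itself, so their parting follows from the choice of genes. The median of the mean length went from 1716 to 2685 bases over the longer genes and from 3178 to 1972 bases over the shorter ones, which follows from it as well.

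**Figure D5:**
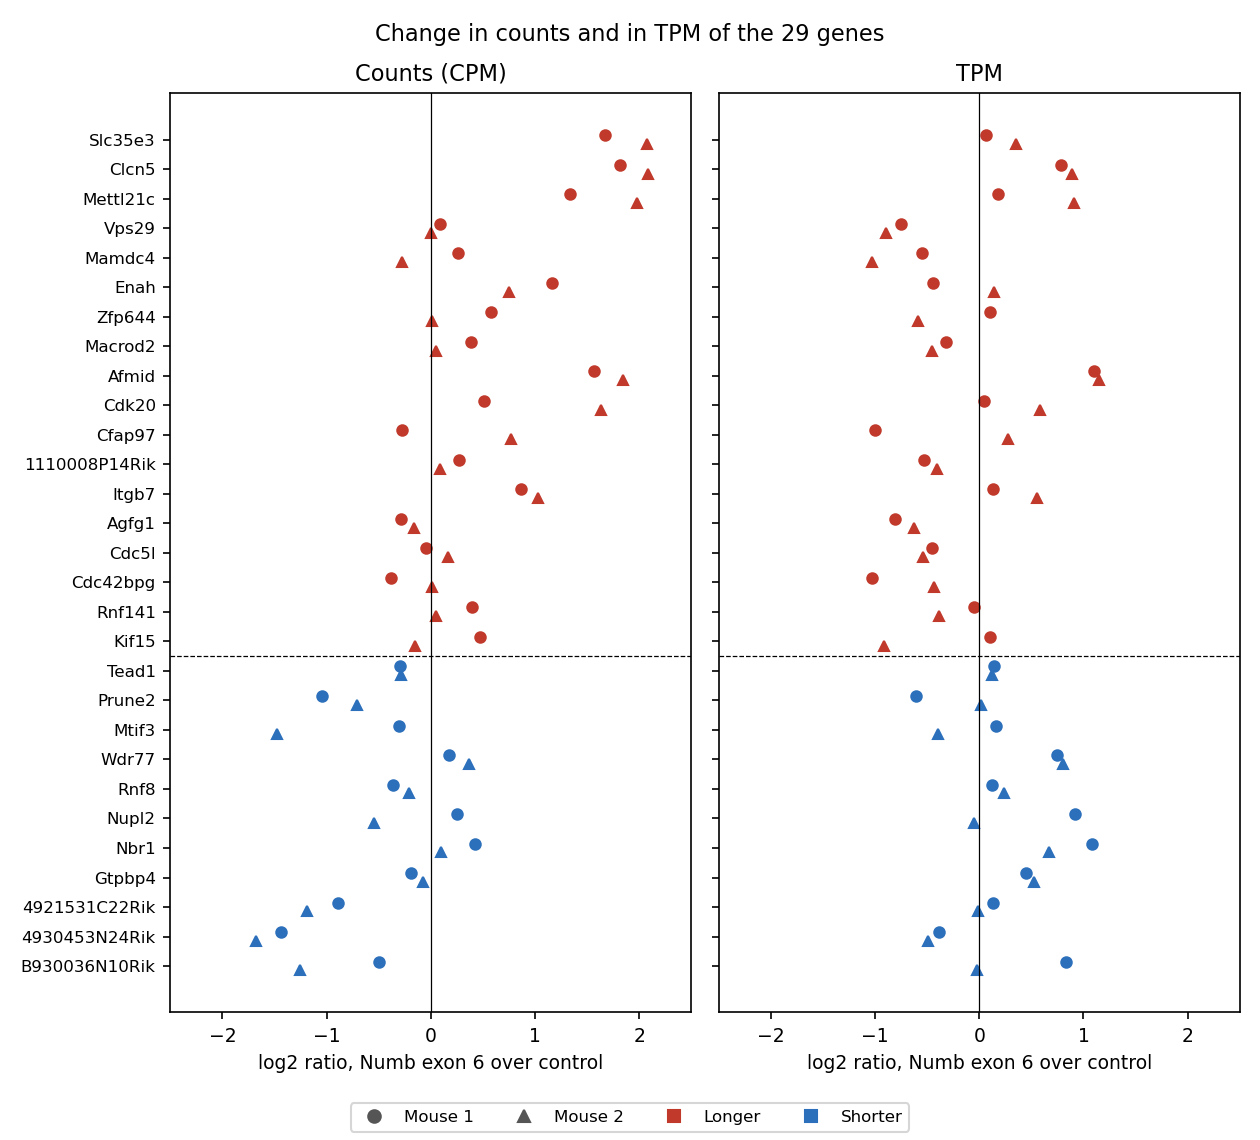
Log2 ratio of CPM (left) and of TPM (right), Numb exon 6 over control morpholino, for each of the 29 genes in mouse 1 (circles) and mouse 2 (triangles). Longer genes (red) lie mostly right of 0 in counts and on both sides of 0 in TPM, and shorter genes (blue) mostly left of 0 in counts and on both sides in TPM.

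The 29 genes lie on 15 chromosomes, and 27 code for proteins. They were set beside the 9819 genes whose annotated lengths would allow a shift of the required size. The median number of transcripts was 6 in both sets, and a retained-intron transcript was annotated in 72.4% against 67.2%, a decay target in 31.0% against 32.1%, and a coding longest transcript in 75.9% against 75.4%. The ratio of longest to shortest transcript had a median of 9.40 against 6.87, the longest transcript one of 4619 against 3498 bases, and the last exon held a median of 72.7% against 52.9% of it. Exons of another gene overlapped 16 of the 29 (55.2%) against 40.4%. The 16 were 1110008P14Rik, 4921531C22Rik, Afmid, Agfg1, B930036N10Rik, Cdc5l, Cdk20, Cfap97, Gtpbp4, Mamdc4, Mtif3, Rnf141, Rnf8, Vps29, Wdr77 and Zfp644. In these unstranded libraries reads of such shared stretches may stem from either gene. The genes were also less abundant, with a median TPM of 7.15 against 15.4 and a median lowest count of 1018 against 4777, and 14 of the 29 had a lowest count under 1000, against 22.3% of all genes that passed the level limits. The part of low counts and of overlapping genes in the shifts was not tested.

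Of 18 members with at least 2 coding transcripts of annotated end, 12 have ends more than 1000 bases apart. This was not counted over other genes, so it has no background share and is a description only. An AATAAA or ATTAAA lay in the last 30 bases of 52 of the 87 coding transcripts with an annotated end (59.8%), against 57.5% of 26540 such transcripts over all genes that passed the level limits. RefSeq promoter windows were matched for 23 of the 29 genes, 4 of them with more than 1.

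Numb itself was not among the 29. Its mean length was 3048 and 2795 bases in the controls and 2971 and 2869 bases with the Numb exon 6 morpholino, with shifts of -0.05 and 0.03. The exon counted sixth along an annotated transcript of 3468 bases is a coding exon of 33 bases that 5 of 12 annotated transcripts carry (chr12:83825259-83825291, minus strand, GRCm38). Whether the numbering of the study is that of this transcript is not given in the sources used here. It is shown in capitals, with 15 flanking coding bases, for its size.
Numb exon 6: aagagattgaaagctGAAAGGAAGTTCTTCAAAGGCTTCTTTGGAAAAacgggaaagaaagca
The exon itself adds 33 bases, less than the difference between the control libraries. The annotated Numb transcripts run from 364 to 3549 bases and also differ outside this exon, so a switch would move weight between whole transcripts. Mean length therefore does not show whether inclusion of the exon differed. Numbl, the paralogue of Numb, had shifts of 0.05 and -0.06, and Rbfox2 had shifts of -0.20 and -0.04.

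Lists of related genes were read against the 0.222% of all genes that met the rule. At that share lists of these sizes would hold few or no members, so a count of 0 says nothing particular about a list. The lists were chosen with earlier results of these data known and none was tested, so the counts are a description only. None of the 39 measured genes of Numb and the Notch pathway was longer or shorter, with a median shift of -0.007 against -0.010 over all genes. Of 40 genes with exons known to be regulated by Rbfox proteins, Enah was longer and Tead1 shorter, with a median of -0.001. The lists of 62 splicing regulators, 31 cleavage and polyadenylation factors, 23 factors of nonsense-mediated decay, 33 myogenic regulators, 38 chromatin proteins, 79 cytosolic ribosomal proteins and 10 proteins of the signal recognition particle held 0. Of 24 subunits of the V-ATPase and CLC exchangers, which acidify and balance charge in endosomes, Clcn5 was the only one. Markers of leukocytes, endothelium, fibro-adipogenic progenitors, fibres and glia held 0 of 3, 8, 8, 6 and 4 measured.

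The genes known from earlier results for their levels had varied lengths. Cbx3, a heterochromatin protein, had TPM of 47.3 and 45.2 in the controls against 8.38 and 11.9, but shifts in length of 0.12 and -0.06. Atp6v0c, a V-ATPase subunit, had shifts of -0.01 and -0.00. Fam107b had 0.13 and 0.41 and missed the threshold in mouse 1, and Creb5, a transcription factor, had 0.33 and 0.3985 and missed it in both mice. Ntn1 and Zbtb4 did not reach a TPM of 1 in the controls and so could not be chosen. The mean length of Zbtb4, a zinc finger protein, was 5351 and 5060 bases in the controls and 7298 and 7709 bases with the Numb exon 6 morpholino, which is 1.36-fold and 1.52-fold longer, and that of Ntn1, which encodes netrin, was 5007 and 5874 bases against 5874 and 5873 bases. Just outside the threshold lay Tyk2 and Tgfb1i1 among the longer genes, with shifts of 0.40 and 0.41 and of 0.61 and 0.39, and Efcab6 and Dnhd1 among the shorter, with -0.40 and -0.74 and with -0.53 and -0.40. Just inside lay Kif15 and Rnf141 among the longer genes and Tead1 and Prune2 among the shorter, the last with shifts of -0.40 and -0.73.

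The comparison of the mice was not used in the choice of the genes and was tested with the morpholino as a term, 1 animal against 1. For mean transcript length, limma called 0 of 13063 genes (0%), and 854 had an unadjusted p under 0.05, 3 of them among the 29. The 29 genes had adjusted p values between 0.732 and 0.978. On simulated lengths with the spread of each gene as measured, limma recovered 0 of 200 changed genes, so the absence of calls does not bear on the size of the differences. The median size of the log2 difference between the mice was 0.090 in the 29 genes and 0.015 over all genes, which include those with 1 annotated transcript. A size of 0.4 was reached by 3 of the 29 and by 117 of all genes: Cdk20 with -0.91 ± 0.21, Mtif3 with -0.55 ± 0.26 and Itgb7 with -0.45 ± 0.12 (SE; mouse 2 minus mouse 1, limma adjusted p = 0.790, 0.944 and 0.818). All were shorter in mouse 2.

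The same rule applied between the mice, within each morpholino, picked 32 genes (0.245%), 18 longer and 14 shorter in mouse 2, and 26 genes with opposite signs. The number between mice was thus close to the 29 (0.222%) between morpholinos. Cdk20 was the only gene in both sets. For counts, edgeR called 1 of 27551 genes between the mice (0.00363%), the unnamed model Gm27300 with fewer counts in mouse 2, and none of the 29, whose adjusted p values lay between 0.404 and 0.986. DESeq2 called 662 genes (2.4%), among them Wdr77 and Prune2. Both had lower counts in mouse 2, with log2 differences of -0.44 ± 0.10 and -0.91 ± 0.16 (SE; edgeR adjusted p = 0.442 and 0.404).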

How the data were processed

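RNA of satellite cells from 2 mice, each with a control and a Numb exon 6 morpholino, gave 4 libraries. Per the submitters' processing notes, the tools were HISAT2 2.1.0 and StringTie 1.3.6 on GRCm38. Not given in the sources used here are the annotation and the way coverage became counts. The authors deposited estimated counts per gene (whole numbers, not normalized) and TPM values scaled to transcript length and library. Column names match the library names in the labels, and 0 sample columns were left out.

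Length was the estimated count over TPM. Limits on transcript shares assume the lengths of GENCODE vM21, which holds 55094 of the identifiers. For each gene the lowest and highest share of a transcript class that gives the estimated mean was solved. The members and the gene lists were chosen with earlier results of these data known. Every member was named, as were the genes just outside the threshold, Numb, Numbl, Rbfox2 and the 7 genes known from earlier results.

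Mice were compared in R 4.3.3 with limma 3.58.1 on log2 length and with edgeR 4.0.16 (quasi-likelihood, robust, TMM, default filter) on counts, the morpholino being a term, with Benjamini-Hochberg adjustment at 0.05. DESeq2 1.42.0 was an alternative. The main count test between morpholinos had no block. The mouse pairs the libraries, since libraries of the same number come from the same animal: deviations from the group means correlated across genes at 0.31 in log2 CPM and at 0.06 in log2 length. With separate libraries of 1 animal per mouse, p-values measure only the spread between libraries. The tests were checked on simulated data: edgeR recovered 192 of 200 changed genes between mice with 6 false calls, and limma 184 with 3 when all genes had 1 spread, and 0 with the measured spreads. The depth in fragments is unknown. Alternatives changed the threshold, the level limits, the scaling, the filter, the tool and the libraries used.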

Additional observations from a re-analysis of the deposited data

Results flagged for a closer look

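In 23 genes the mean transcript length passed the threshold in both mice, longer in one mouse and shorter in the other with the Numb exon 6 morpholino. The difference between the mice was not tested, as each mouse gave 1 library per morpholino. The widest were Rab30, with shifts of 1.96 in mouse 1 and -0.76 in mouse 2, Flna, an actin crosslinker, with -1.02 and 1.16, Epha1, with 1.00 and -0.83, and Zfp280b, with -0.77 and 1.06; these were picked after their values were seen. The 23 stand against 29 genes that passed with the same sign.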

How the results depend on the processing

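The number of genes that met the length rule moved with its settings. It was 58 (36 longer, 22 shorter) at a threshold of 0.3 and 10 (6 and 4) at 0.6, 15 (7 longer) with at least 1000 counts, and 13 (7 and 6) with a TPM of at least 5. With 1 mouse alone, 229 to 236 genes met it (132 to 134 longer, 95 to 104 shorter). Leaving out genes whose exons overlap another gene, an alternative chosen after seeing the data, left 13 (8 and 5). With the constant of single-transcript genes in place of the library median, 30 genes met it, 27 of the 29 kept; Prune2 and Tead1 fell out and Msantd2, Tgfb1i1 and Tyk2 came in.

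Over all 27551 genes, edgeR called 0 between the morpholinos, with 1145 at an unadjusted p under 0.05. With the mouse as a replicate block it called 0 as well, with 1677 at an unadjusted p under 0.05. Without a filter on low counts it called 10, DESeq2 called 65, and with 1 library left out 0 to 1 were called. Between the mice edgeR called 1 gene, 7 without the morpholino as a term, and 1 to 28 with 1 library left out and no such term (19 when the control library of mouse 2 was left out, 28 when its Numb exon 6 library was); DESeq2 called 662. The cause was not tested. With the morpholino as a term, 3 libraries leave no residual degree of freedom, so those fits were not run. For length between the mice, limma called 0 under every alternative run, with 647 to 926 genes at an unadjusted p under 0.05. Low counts limit the precision of length in the 14 genes whose lowest count is under 1000.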
